A study of Mus musculus with 11 samples.

Results

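The C-type lectin receptors of the myeloid cells of the mouse were followed through the polyA RNA-seq libraries of RXR-sufficient and RXR-deficient alveolar macrophages (AMs). The 10 receptors were chosen by name: *Clec7a*, *Clec4n*, *Clec4e*, *Clec4d*, *Clec4a1*, *Clec4a2*, *Clec4a3*, *Clec5a*, *Clec12a* and *Clec10a*. Of these, 9 are among the 12932 genes of the table and all 9 were tested. They reached at least 1 CPM in every library, so none was kept through its level in a single group. *Clec10a* was not analysed here.

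The libraries came from 9-week-old C57BL/6J mice, with 40000 sorted cells per library. Mature AMs (mAMs, CD11b- SiglecF+) of *Rxrab* fl/fl littermates without Cre (control mAMs, mAM_WT in the plots) gave 4 libraries. Mature AMs of *Cd11c* Cre+ *Rxrab* fl/fl mice (RXR-deficient mAMs, mAM_KO) gave 4 libraries, of which replicates 1 to 3 entered the comparisons. Immature AMs (ImmAMs, CD11b+ SiglecF+; Imm_KO) of *Cd11c* Cre+ *Rxrab* fl/fl mice gave 3 libraries, replicates 2 to 4. *Rxra* and *Rxrb* were floxed in all groups, the labels name no treatment, and Cre was driven by *Cd11c*, a gene that AMs share with other lung macrophages and dendritic cells. The methods of the study name bronchoalveolar lavage as the source of the sorted cells, while the labels give lung as the tissue. No control ImmAMs were analysed here, so a comparison of ImmAMs with control mAMs changes genotype and maturation state at once, and their shares cannot be told apart.

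C-type lectin receptors recognise sugars, glycolipids and dying cells, and on macrophages they serve as sensors of fungi and mycobacteria. Some activate the kinase Syk, either through a motif of their own, as Dectin-1 does, or through the adaptors FcRγ (*Fcer1g*) and DAP12 (*Tyrobp*), and Syk then signals through the CARD9-BCL10-MALT1 complex to NF-κB. Others carry inhibitory motifs that recruit the phosphatases SHP-1 (*Ptpn6*) and SHIP-1 (*Inpp5d*) and restrain these signals. RXRα and RXRβ are nuclear receptors that pair with partners such as PPARγ, LXRs and the vitamin D receptor.

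Most of these genes lie in clusters on mouse chromosome 6 (GRCm38, GENCODE vM21). *Clec4a1* (122921848 to 122934619), *Clec4a3* (122952515 to 122969875), *Clec4a2* (123106428 to 123143999), *Clec4n* (123229843 to 123247021) and *Clec4d* (123262111 to 123275265) are on the plus strand, and *Clec4e* (123281789 to 123289870) is on the minus strand. They span 368 kb in all, and *Clec4d* and *Clec4e* stand 6.52 kb apart. *Clec12a* (129342691 to 129365303, plus strand) and *Clec7a* (129461591 to 129472779, minus strand) are neighbours 96.3 kb apart. *Clec5a* (40574894 to 40585821, minus strand) lies elsewhere on the chromosome. *Clec7a* carries the annotation polymorphic pseudogene. *Clec10a* is on chromosome 11.

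The bases upstream of 4 of these genes are shown because the genes differ in how they moved: *Clec4d* and *Clec4e* are neighbours that were higher in ImmAMs, *Clec4a3* of the same cluster was lower there, and *Clec7a* had the highest level of the 9. Each run holds the 250 bases before a RefSeq start (GRCm38.p6), 5′ to 3′ on the strand of the gene, at chr6:123261857-123262106 (*Clec4d*, plus), chr6:123289872-123290121 (*Clec4e*, minus), chr6:122952265-122952514 (*Clec4a3*, plus, the outer of 2 starts) and chr6:129472780-129473029 (*Clec7a*, minus, the inner of 2 starts). None of the 4 overlaps an annotated exon of its own gene, and exons of other genes were not checked. Capitals mark GAGGAA, the core read by PU.1 and other ETS factors, or TTGCNNAA, a core of C/EBP sites, on either strand.
Clec4d: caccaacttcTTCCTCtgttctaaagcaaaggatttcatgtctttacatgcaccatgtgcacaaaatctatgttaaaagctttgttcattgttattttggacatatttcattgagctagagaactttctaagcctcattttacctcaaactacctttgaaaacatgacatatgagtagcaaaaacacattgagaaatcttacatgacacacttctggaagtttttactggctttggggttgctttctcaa
Clec4e: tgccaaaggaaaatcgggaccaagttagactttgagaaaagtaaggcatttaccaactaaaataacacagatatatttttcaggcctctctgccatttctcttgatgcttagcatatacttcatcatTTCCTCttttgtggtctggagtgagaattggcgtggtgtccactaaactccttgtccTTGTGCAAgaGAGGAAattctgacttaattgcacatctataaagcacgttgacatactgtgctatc
Clec4a3: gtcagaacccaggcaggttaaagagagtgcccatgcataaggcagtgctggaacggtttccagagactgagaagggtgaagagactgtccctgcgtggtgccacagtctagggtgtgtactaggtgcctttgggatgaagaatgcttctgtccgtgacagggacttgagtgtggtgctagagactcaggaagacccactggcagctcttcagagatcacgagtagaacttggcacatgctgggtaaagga
Clec7a: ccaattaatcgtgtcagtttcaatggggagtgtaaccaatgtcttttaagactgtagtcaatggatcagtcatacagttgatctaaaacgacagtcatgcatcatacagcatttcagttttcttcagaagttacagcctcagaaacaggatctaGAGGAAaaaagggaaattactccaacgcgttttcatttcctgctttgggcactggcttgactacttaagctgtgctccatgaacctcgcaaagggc
RefSeq windows were at hand for 8 of the 10 genes, and GAGGAA was found in 7 of these 8 (8 of their 10 windows), against 23.3% of 32851 upstream windows of the same length. The windows of *Clec7a* overlap and hold the same match. A gene was counted where any of its windows had a match, while the background counts windows, and the difference was not tested. For *Clec4a3* the match lies in the window of its other start, which overlaps an annotated exon and is not shown, and the run shown has none. *Clec4a2* had none. In *Clec4e* the letters TTGCNNAA and GAGGAA stood 66 and 56 bases before the start. TTGCNNAA was found in *Clec4e* and *Clec12a* (9.56% of all windows), and TGANTCA, the core of AP-1 sites, in *Clec12a* (6.75% of all windows). AGGTCA, the core that RXR and its partners read (14.0% of all windows), and DR1, a direct repeat of that core with 1 base between (0.0335%), were found in none of the windows of the 8 genes. A missing match says only that these letters are not in these 250 bases.

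Values are CPM on TMM-scaled library sizes, and levels of different genes are compared as CPM per kb of exon. In control mAMs *Clec7a*, which encodes the β-glucan receptor Dectin-1, had the highest level, at 454 ± 99.7 CPM per kb (SD, n = 4). *Clec4n* followed at 263 ± 44.1, *Clec4a3* at 125 ± 16.8 and *Clec4a2* at 35.2 ± 4.23 CPM per kb, and the ranges of these 4 genes did not overlap. *Clec4d* (13.5 ± 2.17), *Clec4e* (11.3 ± 3.36), *Clec5a* (9.77 ± 1.52) and *Clec12a* (8.81 ± 1.16 CPM per kb) came next, with ranges in which each overlapped its neighbour in the order. *Clec4a1* was lowest at 2.07 ± 0.220 CPM per kb. In ImmAMs *Clec7a* (587 ± 45.6, n = 3) and *Clec4n* (481 ± 19.6 CPM per kb) kept the top places, and *Clec4d* at 86.5 ± 0.938 CPM per kb stood above *Clec4a3* at 79.2 ± 5.10 with no overlap. *Clec5a* reached 36.1 ± 2.59 and *Clec4e* 27.2 ± 2.21 CPM per kb there, both above *Clec4a2* at 22.3 ± 1.15, again without overlap.

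**Figure D1:**
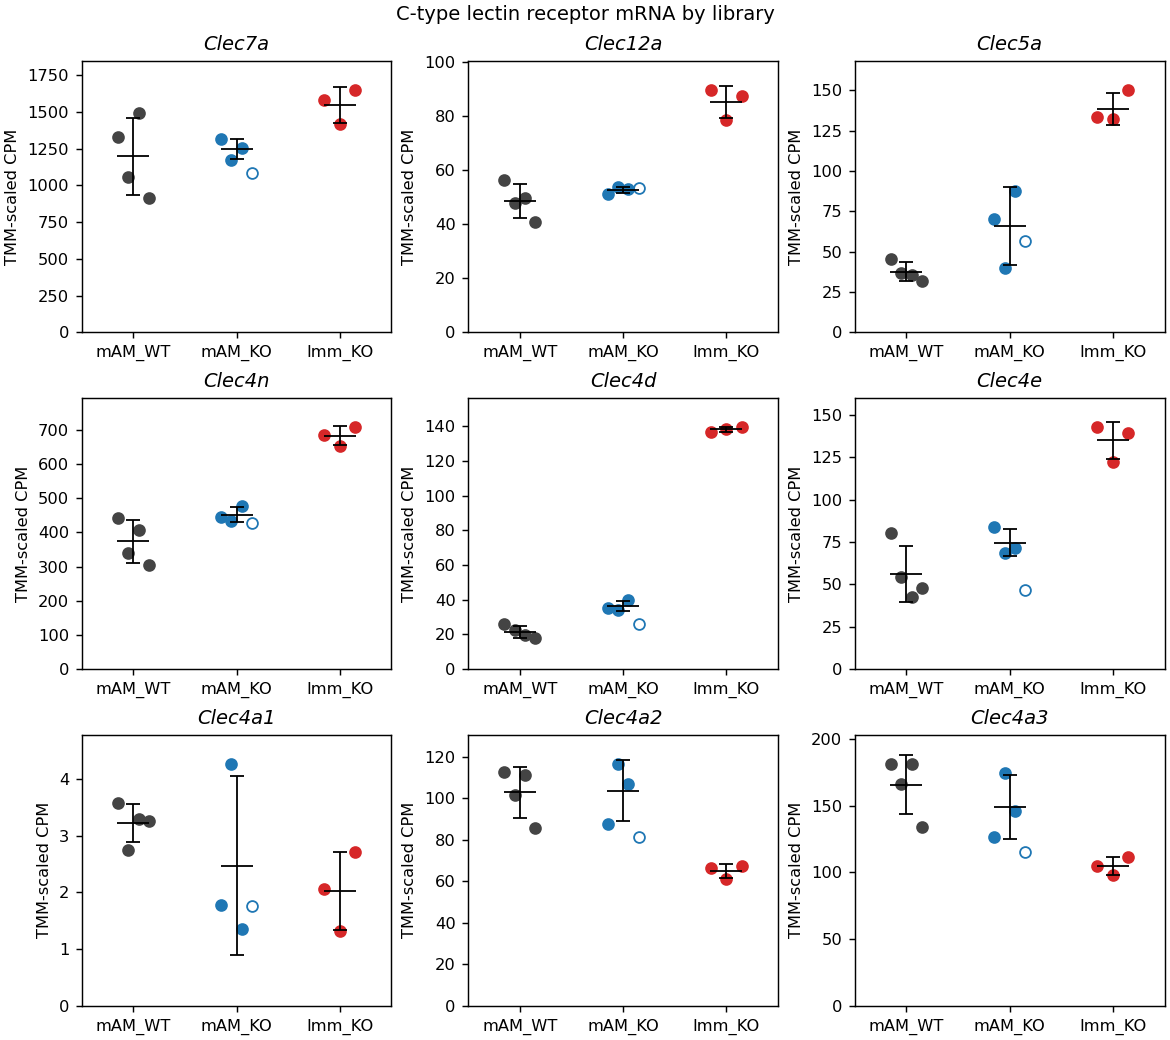
TMM-scaled CPM (linear axes from 0) of the 9 receptors in each library, as filled points for the 10 libraries compared and an open point for mAM_KO replicate 4; black lines give the mean ± SD of the filled points. *Clec4d* sits between 137 and 140 in all 3 ImmAM libraries and between 18.05 and 26.0 in the 4 control mAM libraries.

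Among the chosen receptors that signal through FcRγ, *Clec4d*, *Clec4e* and *Clec4n* were higher in ImmAMs than in either mAM group. *Clec4d* was also higher in RXR-deficient mAMs than in control mAMs. *Clec4b1*, a gene of the same cluster that was not among those chosen, also signals through FcRγ and was lower in ImmAMs (log2 fold changes of -3.94 against control and -3.37 against RXR-deficient mAMs). *Clec4d* encodes MCL, a receptor of mycobacterial glycolipid that works together with Mincle. Its CPM was 26.0, 22.3, 19.8 and 18.05 in control mAMs, 35.1, 34.1 and 39.5 in RXR-deficient mAMs and 137, 139 and 140 in ImmAMs. The 3 groups did not overlap in these libraries, whereas replicate 4 of the RXR-deficient mAMs stood at 25.8, inside the range of the controls. Between the mAM groups the log2 fold change was 0.76 ± 0.11 (SE; 1.69-fold; limma p-adj = 0.00413), and it was 0.64 (limma p-adj = 0.0217) when replicate 4 was included. ImmAMs exceeded control mAMs 6.48-fold (2.70 ± 0.11; limma p-adj = 1.13e-09) and RXR-deficient mAMs 3.82-fold (1.94 ± 0.12; limma p-adj = 8.20e-08). The comparisons share libraries: control mAMs serve in both comparisons with them, and ImmAMs in both of theirs.

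*Clec4e* encodes Mincle, which binds the mycobacterial cord factor. It was at 80.1, 54.3, 42.3 and 48.0 CPM in control mAMs, at 83.7, 68.8 and 71.3 in RXR-deficient mAMs (46.8 in replicate 4) and at 143, 123 and 140 in ImmAMs. All ImmAM libraries were above all mAM libraries, and the mAM groups overlapped through replicate 1 of the controls. The log2 fold change in ImmAMs was 1.31 ± 0.17 against control mAMs (2.47-fold; limma p-adj = 3.4e-05) and 0.86 ± 0.18 against RXR-deficient mAMs (limma p-adj = 0.00226). Between the mAM groups it was 0.45 ± 0.17 (limma p-adj = 0.134). *Clec4n*, for Dectin-2, a receptor of fungal mannans, stood at 442, 341, 408 and 304 CPM in control mAMs, at 447, 433 and 476 in RXR-deficient mAMs (429 in replicate 4) and at 686, 654 and 709 in ImmAMs. Again the ImmAMs stood apart and the mAM groups overlapped through replicate 1 of the controls and replicate 2 of the RXR-deficient mAMs. *Clec4n* was 1.84-fold higher in ImmAMs than in control mAMs (0.88 ± 0.11; limma p-adj = 1.95e-05), and between the mAM groups its log2 fold change was 0.29 ± 0.11 (limma p-adj = 0.128). Without replicate 1 of the control mAMs, both genes passed the threshold between the mAM groups, with log2 fold changes of 0.63 for *Clec4e* (limma p-adj = 0.0108) and 0.37 for *Clec4n* (limma p-adj = 0.0407).

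*Clec5a*, for MDL-1, which signals through DAP12 and DAP10, was also higher in ImmAMs. The control mAMs held 45.7, 36.8, 35.6 and 31.9 CPM, the RXR-deficient mAMs 70.4, 40.0 and 87.3 (56.6 in replicate 4) and the ImmAMs 133, 132 and 150. The RXR-deficient mAMs were the most spread, and their replicate 2 lay within the range of the controls. The ImmAMs were 3.72-fold above control mAMs (1.90 ± 0.21; limma p-adj = 6.85e-06) and 2.21-fold above RXR-deficient mAMs (1.14 ± 0.22; limma p-adj = 0.00119). Between the mAM groups the log2 fold change of 0.75 ± 0.21 lay close to the threshold (limma p-adj = 0.0556), and it passed without replicate 2 of the RXR-deficient mAMs (1.08; limma p-adj = 0.000823) and without replicate 1 of the controls (0.85; limma p-adj = 0.0377).

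*Clec7a* was higher in ImmAMs than in control mAMs by a small margin that rested on single libraries. Its CPM was 1331, 1056, 1494 and 912 in control mAMs, 1313, 1174 and 1255 in RXR-deficient mAMs (1085 in replicate 4) and 1581, 1414 and 1648 in ImmAMs. The controls covered a range that included all RXR-deficient libraries and 1 of the ImmAM libraries. The log2 fold change between the mAM groups was 0.08 ± 0.14 (95% interval -0.22 to 0.38; limma p-adj = 0.754). ImmAMs were 1.31-fold above control mAMs (0.39 ± 0.14; limma p-adj = 0.0322), and the call was lost without replicate 2 or 4 of the controls or replicate 2 or 4 of the ImmAMs in turn, with limma p-adj values of 0.0857, 0.0602, 0.0900 and 0.109. Against RXR-deficient mAMs the ImmAMs did not overlap, and the log2 fold change of 0.31 ± 0.15 did not pass (limma p-adj = 0.117), although it did without replicate 4 of the control mAMs (limma p-adj = 0.0402).

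The receptors with inhibitory motifs moved in opposite directions in ImmAMs. *Clec12a*, for MICL, an inhibitory receptor of uric acid crystals and dead cells, held 56.5, 47.8, 49.6 and 41.0 CPM in control mAMs, 51.4, 53.7 and 53.1 in RXR-deficient mAMs (53.4 in replicate 4) and 89.7, 78.6 and 87.6 in ImmAMs. The ImmAMs were above all mAM libraries, and the RXR-deficient mAMs lay inside the range of the controls. It was 1.76-fold higher in ImmAMs than in control mAMs (0.82 ± 0.10; limma p-adj = 1.92e-05; 0.69 ± 0.11 against RXR-deficient mAMs, limma p-adj = 0.000201). *Clec4a2*, for the inhibitory receptor DCIR, held 113, 102, 111 and 85.9 CPM in control mAMs, 87.7, 117 and 107 in RXR-deficient mAMs (81.4 in replicate 4) and 66.5, 61.3 and 67.6 in ImmAMs. All ImmAM libraries were below all mAM libraries. It was 1.57-fold lower in ImmAMs than in control mAMs (-0.65 ± 0.11; limma p-adj = 0.000329) and 1.58-fold lower than in RXR-deficient mAMs (-0.66 ± 0.12; limma p-adj = 0.000694), and between the mAM groups its log2 fold change was 0.01 (95% interval -0.23 to 0.25; limma p-adj = 0.967). Of the 60-base windows of its transcripts, 5.24% also occur in other genes, *Clec4a4* and *Clec4b1* among them, so part of its reads could be split.

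*Clec4a3* and *Clec4a1* belong to the same DCIR family as *Clec4a2*. *Clec4a3* held 181, 166, 182 and 134 CPM in control mAMs, 127, 174 and 146 in RXR-deficient mAMs (116 in replicate 4) and 105, 98.4 and 112 in ImmAMs. The ImmAM libraries were the lowest of all, and the mAM groups overlapped. The gene was 1.57-fold lower in ImmAMs than in control mAMs (-0.65 ± 0.12; limma p-adj = 0.000626) and 1.41-fold lower than in RXR-deficient mAMs (-0.50 ± 0.13; limma p-adj = 0.00819). *Clec4a1* was scarce, with 24 to 135 reads per library. Its CPM was 3.58, 2.75, 3.28 and 3.27 in control mAMs, 1.78, 4.27 and 1.36 in RXR-deficient mAMs (1.76 in replicate 4) and 2.06, 1.32 and 2.70 in ImmAMs. The ImmAMs lay below the controls without overlap, the log2 fold change of -0.72 ± 0.38 did not pass (limma p-adj = 0.138), and none of its other differences passed either.

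Counted together, 1 of the 9 receptors (*Clec4d*) passed the threshold of 0.05 on limma p-adj between RXR-deficient and control mAMs, where 4.84% of the 12889 genes tested did (2.25% higher, 2.59% lower), and 4 of the 9 had an unadjusted p under 0.05, where 23.6% of all genes did. *Clec4d* was also the 1 receptor whose libraries did not overlap, as for 8.92% of all genes in the higher direction. Between ImmAMs and control mAMs 8 of 9 passed, against 48.1% of all genes; 6 were higher (22.8% of all genes) and 2 lower (25.3%). No overlap was seen for 5 receptors in the higher direction (24.9% of all genes) and for 3 in the lower (26.4%). Between ImmAMs and RXR-deficient mAMs 7 of 9 passed, against 37.9% of all genes, with 5 higher (17.7%) and 2 lower (20.2%), and the libraries did not overlap for 6 in the higher direction (24.8%) and 2 in the lower (26.3%). The median log2 fold change of the 9 receptors was 0.12, 0.82 and 0.60 in these 3 comparisons, and that of all genes -0.0019, -0.0025 and -0.0053.

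**Figure D2:**
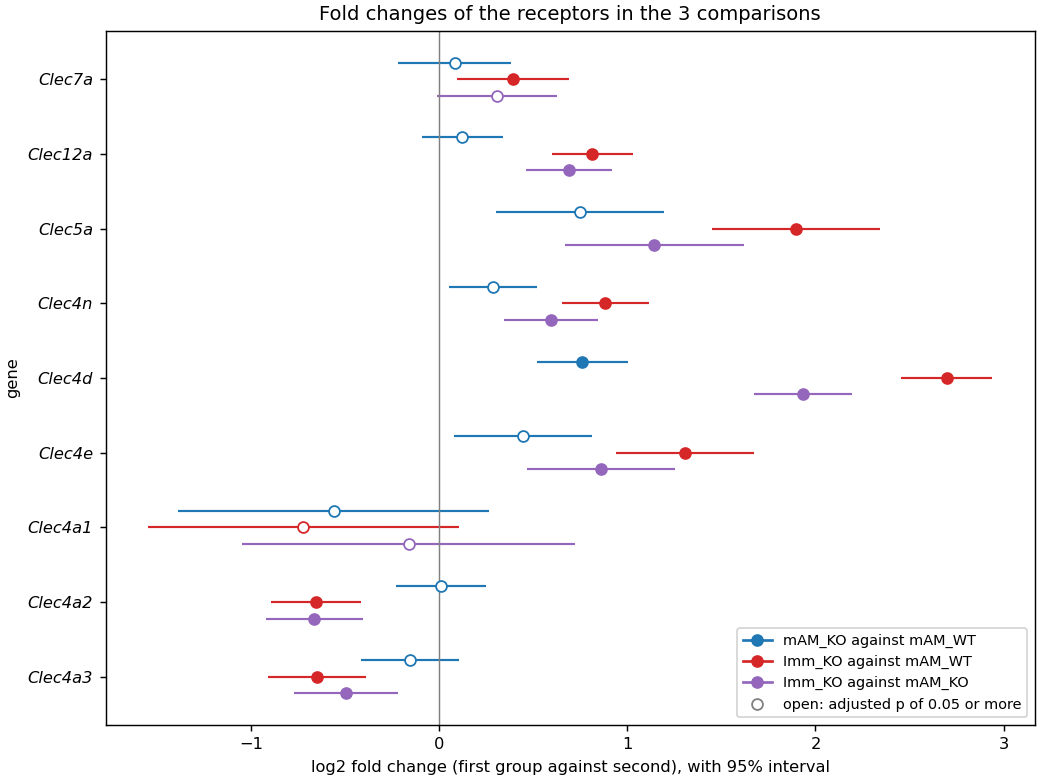
log2 fold change with its 95% interval (x axis) of the 9 receptors (y axis) from limma in the 3 comparisons; filled points have p-adj under 0.05. All 3 points of *Clec4d* are filled, at 0.76, 2.70 and 1.94, and *Clec4a2* and *Clec4a3* lie left of 0 in both comparisons with ImmAMs.

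Along the cluster of 6 *Clec4* receptor genes, the called falls and the called rises in ImmAMs lay at different ends, a pattern that was not tested. *Clec4a3* and *Clec4a2*, at the lower coordinates, had log2 fold changes of -0.65 each against control mAMs, *Clec4a1* next to them did not pass (-0.72), and *Clec4n*, *Clec4d* and *Clec4e*, beyond a gap of 85.8 kb, of 0.88, 2.70 and 1.31. Within each library the summed CPM of *Clec4n*, *Clec4d* and *Clec4e* was 1.54 to 1.84 times that of *Clec4a1*, *Clec4a2* and *Clec4a3* in control mAMs, 1.82 to 2.61 times in RXR-deficient mAMs (2.52 in replicate 4) and 5.43 to 5.69 times in ImmAMs. These ratios within a library do not depend on how libraries were scaled, and were not tested. The ratio of *Clec4n* to *Clec4d* fell between 15.3 and 20.6 in control mAMs, between 12.0 and 12.7 in RXR-deficient mAMs (16.6 in replicate 4) and between 4.72 and 5.08 in ImmAMs.

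**Figure D3:**
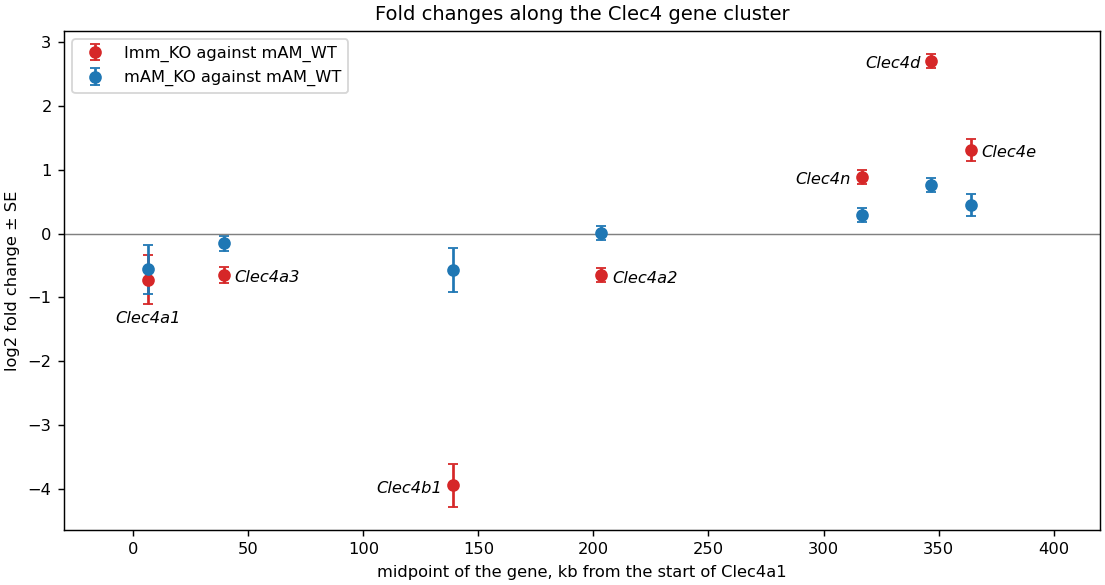
log2 fold change ± SE from limma against mAM_WT (y axis) of the *Clec4* genes of the table, by the distance of the gene's midpoint from the start of *Clec4a1* in kb (x axis), for Imm_KO and mAM_KO. In Imm_KO the genes up to *Clec4a2* lie below 0, *Clec4b1* lowest at -3.94, and *Clec4n*, *Clec4d* and *Clec4e* lie above 0.

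**Figure D4:**
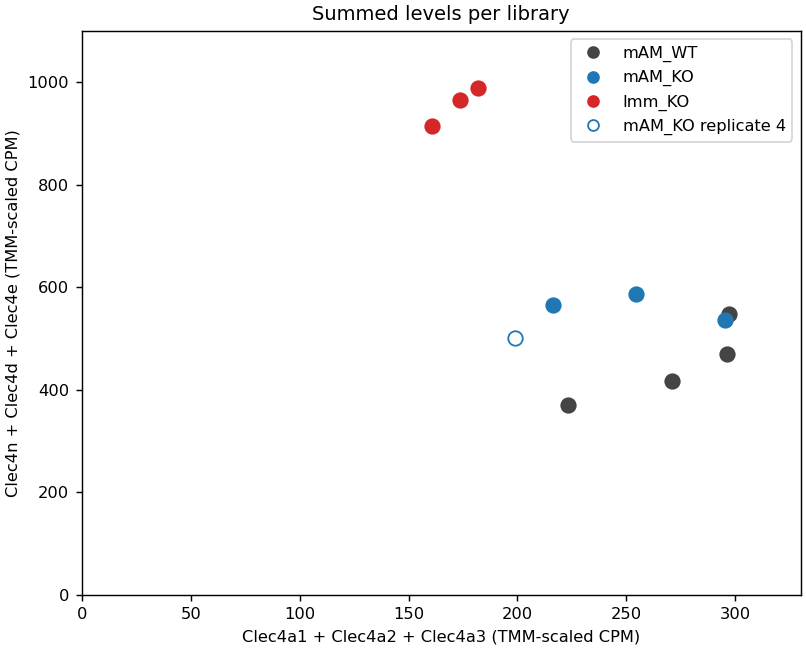
Summed TMM-scaled CPM of *Clec4n*, *Clec4d* and *Clec4e* (y axis) against that of *Clec4a1*, *Clec4a2* and *Clec4a3* (x axis), 1 point per library, linear axes from 0. The 3 ImmAM libraries, at 915 to 989 on the y axis and 161 to 182 on the x axis, are apart from all mAM libraries.

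The table holds 32 genes within 200 kb of any of the 10 receptor genes, 13 of them near *Clec10a*. None of the 32 passed the threshold between the mAM groups by limma (4.84% of all genes), edgeR or limma-voom. At an unadjusted p under 0.05, limma gave 6 that were lower and 0 that were higher (23.6% of all genes in either direction). DESeq2, which called more genes over the whole table than limma, called 3 as lower. Between ImmAMs and control mAMs 12 of the 32 were higher (22.8% of all genes), 7 lower (25.3%) and 13 did not pass. Of these, 2 of the higher, 4 of the lower and 7 that did not pass lie near *Clec10a*. Around the *Clec4* cluster, *C3ar1*, the receptor of the complement fragment C3a, rose from 0.319-0.810 CPM in control mAMs to 68.3-75.7 CPM in ImmAMs (limma p-adj = 9.70e-08), and *Slc2a3* (2.74; limma p-adj = 0.000162), *Foxj2* (0.68; limma p-adj = 2.99e-05) and *Necap1* (0.80; limma p-adj = 1.71e-05, log2 fold changes) were higher too. *Clec4b1*, for DCAR, another receptor that signals through FcRγ, lies 34.9 kb from *Clec4a2* and fell from 18.4-24.8 to 0.685-2.13 CPM (-3.94 ± 0.34; limma p-adj = 7.99e-07). Next to *Clec7a* and *Clec12a*, *Olr1*, for the lectin-like receptor LOX-1 of oxidised LDL, fell by 1.24 on the log2 scale (limma p-adj = 8.51e-07) and *Clec2d* by 0.83 (limma p-adj = 0.000714). *Clec1a*, *Clec1b*, *Clec9a*, *Gm43914* and *Gabarapl1* rose there (log2 fold changes of 1.11, 0.54, 1.76, 2.27 and 0.70), of which *Clec1b* and *Clec9a* overlap on the same strand. Among the libraries compared, *Gm43914* reached 1 CPM in those of the ImmAMs only. *C3ar1*, *Slc2a3* and the 2 higher genes near *Clec10a* reached it in fewer than 3 mAM libraries. All of these entered the test, and the count of 12, through the ImmAMs, where they were high. *E330009J07Rik* near *Clec5a* rose by 1.68.

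Of 47 other genes with a C-type lectin domain, 19 were in the table. Between the mAM groups 3 of these 19 were higher and none lower by limma (4.84% of all genes passed; 3 of the 19 also with replicate 4 included): *Cd93* (27.1 to 55.7 CPM in control and 90.2 to 271 in RXR-deficient mAMs; limma p-adj = 0.00419), *Colec12*, a scavenger receptor (0.58 ± 0.15; limma p-adj = 0.0484), and *Thbd*, for thrombomodulin (0.42 ± 0.11; limma p-adj = 0.0440). At an unadjusted p under 0.05 limma gave 4 that were higher and 0 lower (23.6% of all genes in either direction). At the adjusted threshold edgeR, DESeq2 and limma-voom called 3, 3 and 2 as higher and 0 as lower, and DESeq2 called more genes over the whole table than limma. In ImmAMs against control mAMs 9 of the 19 were higher (22.8% of all genes) and 7 lower (25.3%). *Cd93* reached 560 to 599 CPM (3.88 ± 0.30; limma p-adj = 2.59e-07). *Mgl2*, the close relative of *Clec10a*, with which that gene shares transcript windows, was at 0.0201 to 0.469 CPM in control mAMs and at 2.41 to 3.65 CPM in ImmAMs. *Mgl2* reached 1 CPM in the ImmAM libraries only, so it entered the test, and the count of 9, through the group where it was high. *Cd209b*, for SIGN-R1, was at 1.15 to 2.75 CPM in control mAMs and at 0.0232 to 0.447 CPM in ImmAMs. *Cd209b* reached 1 CPM in the mAM libraries only, the groups where it was high. Against RXR-deficient mAMs 8 were higher (17.7%) and 7 lower (20.2%).

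The genes that carry the signals of these receptors were followed in a list of 47, of which 42 were in the table. Between the mAM groups 2 of 42 were lower and none higher by limma, with 4.84% of all genes called. *Pik3ap1*, for the PI3K adaptor BCAP, fell by 0.37 ± 0.06 on the log2 scale (limma p-adj = 0.00645), and it was also called with replicate 4 included. At an unadjusted p under 0.05 limma gave 3 higher and 9 lower (23.6% of all genes in either direction). At the adjusted threshold edgeR and limma-voom called 0 higher and 2 lower. DESeq2, which called more genes over the whole table than limma, called 1 higher and 6 lower. In ImmAMs 17 of 42 were higher (22.8% of all genes) and 10 lower (25.3%) than in control mAMs, and 15 were higher (17.7%) and 9 lower (20.2%) than in RXR-deficient mAMs, so that the lower shares were near those of all genes.

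Of the 3 adaptors of the activating receptors, 1 passed in ImmAMs against control mAMs. Over all genes 48.1% passed in this comparison, 22.8% higher and 25.3% lower. *Fcer1g* stood at 344 to 388 CPM in control mAMs and at 403 to 439 in ImmAMs (0.18 ± 0.06; limma p-adj = 0.0303). *Tyrobp* (419 to 515 and 456 to 538 CPM) and *Hcst*, for DAP10 (6.78 to 11.4 and 8.32 to 10.7 CPM), did not pass. In the same comparison *Syk* fell by 0.25 ± 0.06 on the log2 scale (limma p-adj = 0.00547), and of 12 kinases and effectors 4 rose and 7 fell. *Src* rose from 2.27-4.40 to 19.0-21.0 CPM (2.52 ± 0.25; limma p-adj = 2.85e-06), and *Pik3ap1* fell from 1357-1496 to 307-327 CPM (-2.18 ± 0.06; limma p-adj = 5.53e-11). Of the 5 genes of the CARD9 complex *Malt1* rose (0.82 ± 0.14; limma p-adj = 0.000292), while *Card9* stood at 102 to 138 CPM in control mAMs and 91.2 to 103 in ImmAMs (-0.21 ± 0.10; limma p-adj = 0.105).

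Of 13 transcription factors and other outputs 6 rose (22.8% of all genes) and 1 fell (25.3%) in ImmAMs against control mAMs. *Irf5*, which Dectin-1 signals activate, rose from 59.6-66.1 to 175-187 CPM (1.53 ± 0.07; limma p-adj = 2.00e-09), and *Nfatc2* from 0.0925-0.467 to 4.38-6.17 CPM. *Nfatc2* reached 1 CPM in the ImmAM libraries only, so it entered the test, and the count of 6, through the group where it was high. Of the 3 inhibitory phosphatases listed, *Ptpn6* fell by 0.52 ± 0.06 (limma p-adj = 1.60e-05) and *Inpp5d* rose by 0.45 ± 0.07 (limma p-adj = 9.45e-05). The other, *Ptpn11*, did not pass (0.08 ± 0.07; limma p-adj = 0.383). Of the 6 target cytokines and factors that were measured, 4 rose and 1 fell, against the same shares of all genes. *Il1b* rose from 7.41-15.8 to 46.6-49.4 CPM (2.19 ± 0.32; limma p-adj = 9.76e-05), and *Ccl2* from 0.0201-0.467 to 3.01-4.07 CPM. *Ccl2*, which the count of 4 includes, likewise reached 1 CPM in the ImmAM libraries only.

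**Figure D5:**
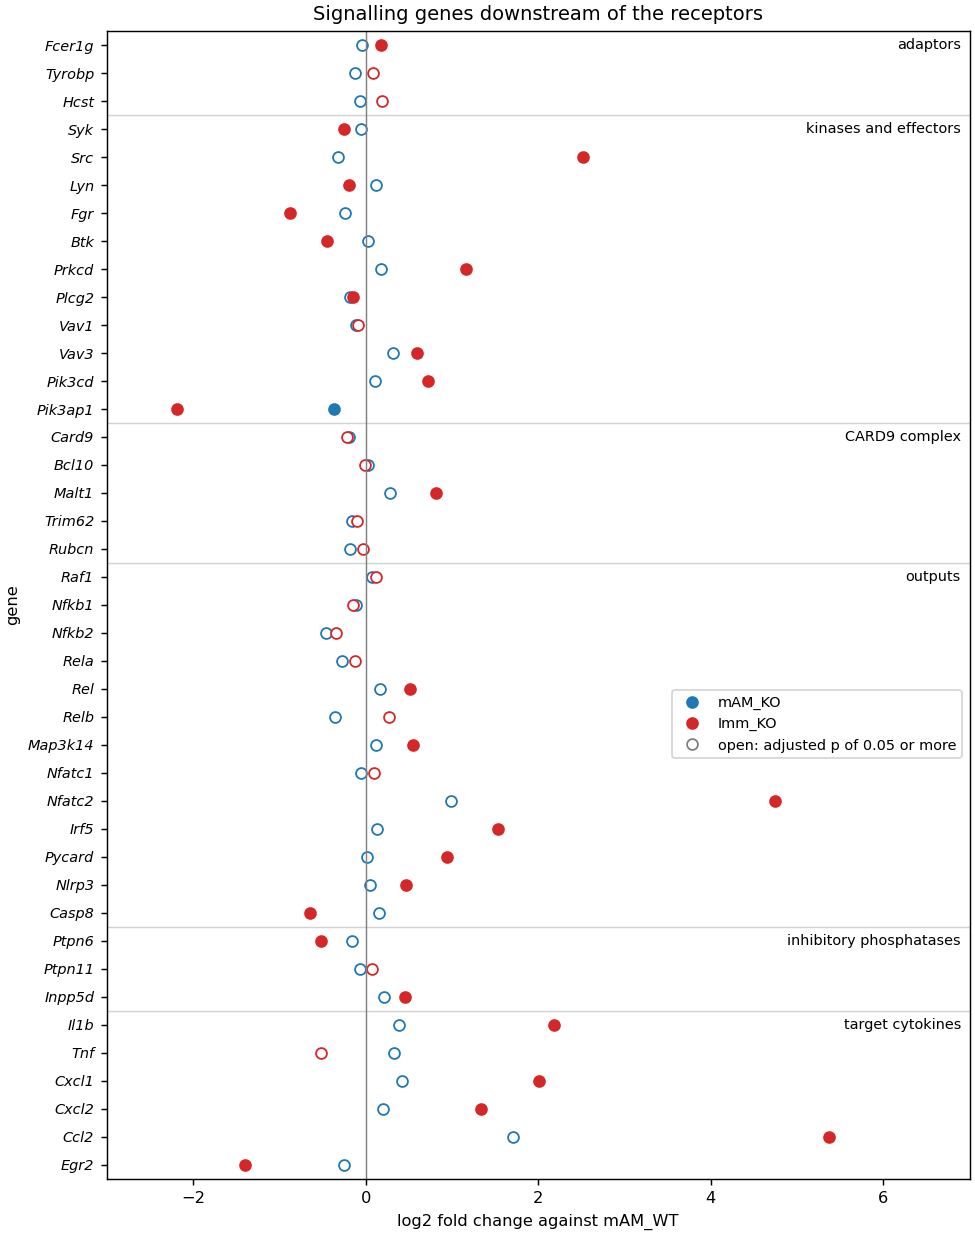
log2 fold change against mAM_WT (x axis) from limma of 41 of the signalling genes (y axis), grouped by role, in mAM_KO and Imm_KO; filled points have p-adj under 0.05. In mAM_KO the point of *Pik3ap1* is filled, and in Imm_KO those of 17 genes above 0 and 9 below 0 are, from -2.18 to 5.38.

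Libraries held 16659960 to 37873532 counted reads. *Rxra* stood at 310 to 380 CPM in control mAMs, 334 to 419 in RXR-deficient mAMs (replicate 4 included) and 283 to 305 in ImmAMs, and *Rxrb* at 51.4 to 72.1, 39.3 to 55.3 and 31.9 to 35.2. The table has 1 value per gene, and which exons were removed is not stated in the sources used here, so these values do not check the deletion. The study itself measured *Rxra* and *Rxrb* mRNA in mAMs and ImmAMs of this mouse line and reports that deletion was efficient. In bulk samples, fewer cells of a type and less RNA per cell cannot be told apart. The labelled cell type was compared with marker lists, and all 15 AM markers were in the table. Of these, 12 were lower (25.3% of all genes) and 1 (*Chil3*) higher (22.8%) in ImmAMs than in control mAMs. In RXR-deficient mAMs 3 of the 15 were lower than in control mAMs (2.59% of all genes) and 0 higher (2.25%). *Siglecf*, the marker of the sort, stood at 244 to 264 CPM in control mAMs and 19.3 to 19.7 in ImmAMs, and *Marco* at 310 to 377 and 10.95 to 13.8 CPM.

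Markers of other cells also differed between the groups. Against control mAMs, 22.8% of all genes were higher and 25.3% lower in ImmAMs, and 2.25% and 2.59% in RXR-deficient mAMs. Some of these markers, *C1qa*, *C1qb*, *C1qc*, *Cd163* and *F13a1* among them, reached 1 CPM in the ImmAM libraries only. They entered the tests through the group where they were high. Of 12 interstitial macrophage markers 9 were in the table, with a sum of 21.3 to 31.8 CPM in control mAMs, 23.7 to 32.5 in RXR-deficient mAMs and 1320 to 1511 in ImmAMs, where 7 of the 9 were higher than in control mAMs. Without *Apoe*, which made up most of the sum in control mAMs and ImmAMs, it was 7.84 to 10.2, 12.9 to 21.5 and 301 to 325 CPM. Of the 9, 1 was higher in RXR-deficient than in control mAMs, *Cx3cr1* at 1.51 to 8.34 against 0.583 to 1.10 CPM (2.25 ± 0.44; limma p-adj = 0.0164). Of 10 monocyte markers 7 were in the table, summing to 131 to 138, 136 to 170 and 183 to 188 CPM, and in ImmAMs 4 were higher and 1 lower than in control mAMs. Within this sum, *Ccr2*, 1 of the 4, rose from 8.91-14.0 to 79.0-86.4 CPM. The 1 that was lower, *Treml4*, fell from 39.8-50.7 to 2.85-3.49 CPM. In RXR-deficient mAMs 1 of the 7 was higher and 1 lower than in control mAMs. Of 11 neutrophil markers 7 were in the table, summing to 55.8 to 63.5 CPM in control mAMs, 114 to 341 in RXR-deficient mAMs and 904 to 977 in ImmAMs. In RXR-deficient mAMs 1 of the 7 was higher than in control mAMs, *Mmp8* (72.3 to 303 against 21.5 to 31.2 CPM), and in ImmAMs 6 of the 7 were, *Mmp8* (851 to 914 CPM), *S100a8* (10.7 to 16.6 against 2.77 to 6.27 CPM) and *S100a9* (1.55 to 3.85 against 0.516 to 1.48 CPM) among them. The study counts *Mmp8* among the core genes of AMs. Without *Mmp8* the neutrophil sum stood at 31.5 to 39.8, 31.9 to 41.2 and 53.1 to 63.0 CPM in the 3 groups. Of 11 dendritic cell markers 5 were in the table, and 3 of these were higher and 1 (*Ffar2*) lower in ImmAMs than in control mAMs. In RXR-deficient mAMs 1 of the 5 was higher than in control mAMs. The 5 markers summed to 45.7 to 52.4, 55.0 to 65.9 and 27.1 to 30.7 CPM, and without *Ffar2* to 10.1 to 13.1, 9.18 to 12.4 and 25.5 to 28.5 CPM. None of the markers of T and NK cells, endothelial cells and fibroblasts was analysed here. The part of other cells in the differences of the receptors was not tested.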

How the data were processed

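Polyadenylated RNA of sorted AMs was sequenced as single-end reads of 60 bases in 11 libraries. According to the study's methods and the labels, the authors removed adapters with Cutadapt, used the GRCm38 transcriptome for mapping, obtained expected counts from RSEM 1.3.1, scaled these by TMM in limma and discarded genes that did not reach 1 CPM in 3 samples. The values deposited by the authors are CPM on TMM-scaled library sizes, 1 value per gene and library. Each is a whole number of reads plus an offset times a fixed step, and the whole reads were recovered within 0.01. They served edgeR 4.0.16, DESeq2 1.42.0 and limma-voom as alternatives. Libraries held 16659960 to 37873532 counted reads, and the reads behind each receptor ranged from 24 for *Clec4a1* to 50375 for *Clec7a*.

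Groups were taken from the labels. The deposited CPM values were taken as log2 without a pseudocount, and the 12889 genes that reached 1 CPM in 3 of these 10 libraries were fitted in 1 limma 3.58.1 model (R 4.3.3) with 3 group means and a variance trend. Replicate 4 of the RXR-deficient mAMs was left out, as the study compares 3 such libraries, and its values are printed beside the others. The 3 comparisons used two-sided moderated tests adjusted by the Benjamini-Hochberg method across the 12889 genes, with p-adj under 0.05 called. SDs are over CPM values and SEs over log2 values. The fit was tested on simulated data. The study describes the libraries as biological replicates, the labels give only a replicate number, and p-values measure the spread between these libraries.

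The receptors and gene lists were chosen with earlier results of these data known. Named genes are the 10 receptors; 7 fixed signalling genes and the 2 called genes of largest change per role and comparison; the 2 largest rises and falls among other C-type lectin genes; the called genes within 200 kb of a called receptor; and *Rxra* and *Rxrb*. Of these, 2 genes are not reported here, and counts of genes include them. *Thbd*, *Mmp8*, *S100a8*, *S100a9*, *Apoe*, *Cx3cr1*, *Ffar2*, *Siglecf*, *Marco*, *Chil3*, *C1qa*, *C1qb*, *C1qc*, *Cd163*, *F13a1*, *Ptpn11*, *Ccr2* and *Treml4* were named after their values were seen. Gene positions are from GENCODE vM21, and upstream sequences from RefSeq on GRCm38.p6. Alternatives were other pseudocounts, filters, scalings and models, a replicate block, all 11 libraries, and each library left out in turn.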

Additional observations from a re-analysis of the deposited data

Results flagged for a closer look

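*Clec4a1* in RXR-deficient mAMs had 1 library far from the rest. Replicate 2 stood at 4.27 CPM, and the other libraries of the group at 1.36 to 1.78 CPM. The gap took 0.856 of the range of the 4 libraries. Of 18 groups of 4 libraries examined this was the 1 that stood apart, and chance gives about 1 in 20.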

How the results depend on the processing

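Between RXR-deficient and control mAMs, 1 receptor (*Clec4d*) was called, and *Clec4d* was called under all 14 alternatives and with each of the 10 libraries left out. The count was 2 with a filter at 5 CPM, with edgeR and with DESeq2, where *Clec5a* was added (p-adj of 0.0472, 0.0438 and 0.000872), and 1 to 4 with a library left out, the 4 without replicate 1 of the control mAMs. The 624 genes called over the whole table (290 higher, 334 lower) became 337 (205 higher, 132 lower) with all 11 libraries, 199 with only the 2 groups compared, 122 (76 higher, 46 lower) without a variance trend and 1368 with DESeq2, and 162 to 861 with a library left out, the 162 without replicate 3 of the RXR-deficient mAMs. In both comparisons with ImmAMs the counts of receptors and of genes stayed within 1.5 times under every alternative. *Clec7a* in ImmAMs against control mAMs lost its call without a variance trend (limma p-adj = 0.0770). Differences that were not called changed sign in 3 cases: *Clec4a1* in ImmAMs against RXR-deficient mAMs (-0.50 to 0.32 with a library left out), *Clec4a2* between the mAM groups (-0.075 with all 11 libraries, -0.081 to 0.13 with a library left out) and *Clec7a* between the mAM groups (-0.040 to 0.20 with a library left out). The causes were not tested. No scaling moved the median of all genes by over 0.1 on the log2 scale. Depth limits *Clec4a1* most, at 24 to 135 reads.

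The labels number the libraries, and nothing says that a number marks a shared animal, litter or day. Same-numbered libraries of different groups had correlations of their deviations of -0.129 to 0.246 over 10 pairs, so the numbers were not taken as pairs. A replicate block gave 174 genes (109 higher, 65 lower) between the mAM groups and turned *Clec4a2* to -0.022. It left *Clec4d* as the 1 receptor called there.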
